A study of Mus musculus with 18 samples.

Results

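Stx11 and 5430435G22Rik, the latter now named Rab7b, are genes of vesicle traffic. They were taken by symbol from the table of array values deposited for glomeruli of mice lacking PTIP in podocytes. They are 2 of the 41 gene symbols in that table and 3 of its 58 probe sets. A probe set is a group of array features summarised as 1 value. Stx11 was read by 2 probe sets, called A and B in the order of their identifiers, and Rab7b by 1. RNA came from sieved, glomeruli-enriched kidney fractions of 18 mice, with 1 Affymetrix mouse genome array per animal. The 10 PTIP- mice carried a podocyte-specific Cre transgene on a ptip fl/fl or a ptip fl/- background. The 8 PTIP+ controls had the same ptip genotypes, fl/fl or fl/-, without Cre, so every animal carried at least 1 floxed allele. The labels name no treatment. The Cre transgene drives recombination in podocytes only, whereas the fractions also hold mesangial, endothelial and other cells. No animal on the arrays carried Cre without the deletion, so the transgene and the loss of PTIP cannot be told apart. The growth protocol puts kidney collection at 4 weeks and the study's methods at 1 month. The stage labels instead count up in sample order, from 1 to 8 months in PTIP+ and from 9 to 18 months in PTIP-. Read as ages, they could not be told apart from genotype, and they were not used. The numbers in the scan names fell into 3 separate runs, called number series 1, 2 and 3 from the lowest to the highest numbers. Series 1 and 3 each held 3 PTIP+ and 3 PTIP- animals, and series 2 held 2 PTIP+ and 4 PTIP- animals. The labels do not say what these numbers mark, and 1 number was shared by PTIP+ replicate 5 and PTIP- replicate 7.

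Membrane traffic moves cargo between compartments by budding, transport along the cytoskeleton and fusion. Fusion is driven by SNARE proteins on the vesicle and target membranes, and small GTPases of the Rab family give each compartment its identity and recruit its tethers and motors. Syntaxin 11, the product of Stx11, is an atypical target-membrane SNARE without a transmembrane segment. It acts in granule release by cytotoxic lymphocytes, and its loss causes a familial form of hemophagocytic lymphohistiocytosis. Rab7b is a late endosomal and lysosomal GTPase that functions in transport from endosomes to the trans-Golgi network, and it was described in monocytic cells as a regulator of Toll-like receptor traffic.

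PTIP is part of a histone H3 lysine 4 methyltransferase complex, and trimethylation of this residue marks the starts of active genes, so the start of the member that has an entry in the promoter table is shown. The RefSeq promoter of Stx11 lies at chr10:12964210-12964509 on the minus strand of GRCm38.p6, and its 300 bases are printed 5′ to 3′ with GC boxes in capitals.

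Stx11: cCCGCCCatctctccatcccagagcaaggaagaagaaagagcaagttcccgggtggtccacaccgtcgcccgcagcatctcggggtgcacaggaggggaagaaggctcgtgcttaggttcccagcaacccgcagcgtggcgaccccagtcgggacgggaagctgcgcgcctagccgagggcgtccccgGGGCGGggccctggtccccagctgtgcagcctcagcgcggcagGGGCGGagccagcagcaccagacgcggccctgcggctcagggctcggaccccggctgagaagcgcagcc

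The window held 3 GC boxes, spelled GGGCGG or CCGCCC on the printed strand, and 35.7% of the 32851 RefSeq promoters of this length held at least 1. It held neither CCAAT nor TATAAA on either strand. CCAAT was present in 37.4% of these promoters and TATAAA in 13.6%. The Stx11 window had 27 CpG dinucleotides against a median of 7 over all these promoters, and 84.5% of them had fewer. Its G and C content was 71.0%, with a median of 52.7% over all. These matches describe the letters of the window, and no binding or methylation at Stx11 was measured on these arrays.

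Both genes were higher in PTIP- glomeruli. Stx11 rose to 2.51-fold of the PTIP+ level by probe set A and to 2.41-fold by probe set B, and the estimate for Rab7b was 1.93-fold. All 10 PTIP- animals lay above the PTIP+ mean for each of the 3 probe sets. In most of the table all 10 likewise lay beyond the PTIP+ mean in the direction of the change. In RNA of a mixed fraction, more cells that express a gene and more RNA of that gene per cell cannot be told apart. The deposited probe sets had themselves been selected on the genotype contrast of these arrays, so these differences and their tests describe the size and spread of a selected change and are not independent evidence of it.

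**Figure D1:**
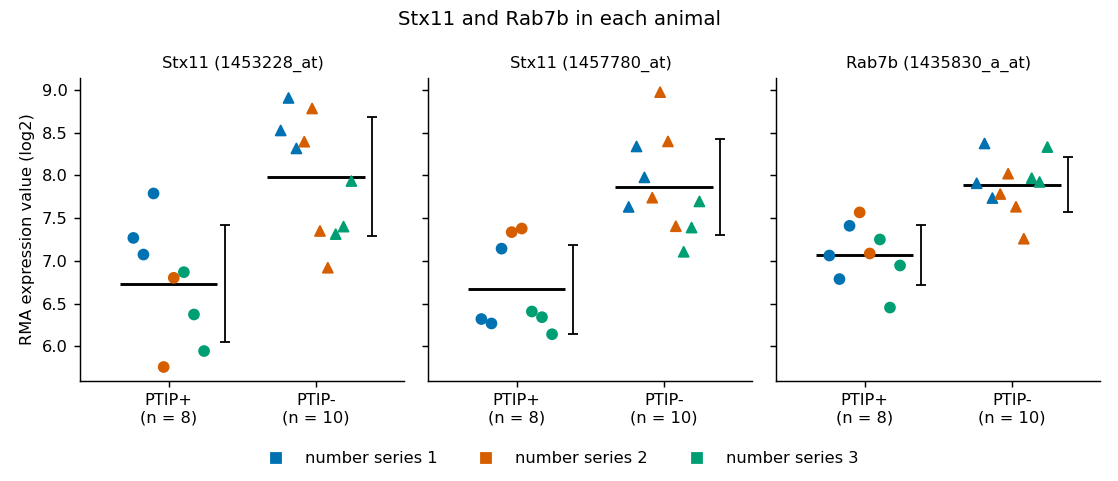
RMA expression value (log2) of each probe set in each animal, by genotype (8 PTIP+, 10 PTIP-), with symbols coloured by number series, a line at the group mean and a bar of 1 SD on each side of it. Identifiers stand above the panels, with probe set A on the left. The PTIP- animals lie higher for all 3 probe sets, and the groups overlap in each.

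For Stx11 by probe set A, the lowest, median and highest PTIP+ values were 5.76, 6.83 and 7.79 on the log2 scale, and those of PTIP- were 6.92, 8.12 and 8.90. The groups overlapped, with 6 of 10 PTIP- animals above every PTIP+ animal. The PTIP+ animals of number series 1 were the highest of their group, at 7.07, 7.27 and 7.79. The lowest PTIP- animal, replicate 7 at 6.92, belonged to series 2. The means were 6.73 ± 0.68 (SD, n = 8) and 7.98 ± 0.70 (SD, n = 10). The array-weighted limma fit gave a log2 fold change of 1.32 (SE 0.27, 95% confidence interval 0.78 to 1.87, adjusted p = 5.17e-05). Permuting genotypes over the animals gave an exact two-sided p of 0.00210 for the unweighted means.

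By probe set B, Stx11 ran from 6.14 to 7.38 in PTIP+ animals, with a median of 6.37. In PTIP- animals it ran from 7.11 to 8.97, with a median of 7.72. Here 9 of 10 PTIP- animals lay above every PTIP+ animal, and PTIP- replicate 8 was the exception. The highest PTIP+ values, 7.38 and 7.34, came from both PTIP+ animals of series 2, and the highest PTIP- value of 8.97 came from the same series. The means were 6.67 ± 0.52 (SD, n = 8) and 7.86 ± 0.56 (SD, n = 10). The log2 fold change in limma was 1.27 (SE 0.21, 95% confidence interval 0.85 to 1.70, adjusted p = 4.18e-06), and the exact permutation p was 0.000274.

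Rab7b varied less between animals of a genotype than either Stx11 probe set. Its PTIP+ values had a low, median and high of 6.45, 7.07 and 7.57, and its PTIP- values of 7.26, 7.91 and 8.37. PTIP- replicate 7 was the only PTIP- animal below the highest PTIP+ animal, and the other 9 of 10 lay above all controls. The means were 7.07 ± 0.35 (SD, n = 8) and 7.89 ± 0.33 (SD, n = 10). The log2 fold change was 0.95 in limma (SE 0.17, 95% confidence interval 0.60 to 1.30, adjusted p = 1.38e-05), with an exact permutation p of 0.000160. The adjusted p passed the threshold of 0.05, but the estimate fell short of the 2-fold change that the study's methods also require. Without PTIP+ replicate 3 it was 1.01 and passed, and without number series 1, 2 or 3 it was 1.08, 1.09 or 0.74. With every array shifted to a common median of the 58 values, it was 1.50. Those array medians differed by -0.46 between PTIP- and PTIP+, in a table in which 38 of the 58 selected probe sets were lower in PTIP-. After the same centring the Stx11 values were 1.95 and 1.86.

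The thresholds of the study were a variance over 0.1, a change of at least 2-fold and an adjusted p no higher than 0.05. Of the 3 probe sets, 2 passed all of them, both of Stx11. Over all 58 probe sets 89.7% passed in either direction and 32.8% as increases. Because the table was selected on this contrast, nothing is read from these shares. Groups did not overlap at all in 25.9% of the 58 probe sets and in 0 of the 3 of Stx11 and Rab7b.

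Among the 20 probe sets higher in PTIP-, the members stood in the lower part of the order. The Stx11 probe sets ranked 13 and 15, and Rab7b ranked 20, the smallest increase. The median log2 fold change of the other 17 was 1.38. Directly above probe set A was 2410004P03Rik at 1.34 (SE 0.18). Myl7, an atrial myosin light chain, stood between the Stx11 probe sets at 1.29 (SE 0.37). Below probe set B was Plk5, a member of the polo-like kinase family, at 1.18 (SE 0.19), and directly above Rab7b was a probe set without a gene symbol at 1.01 (SE 0.20). Each of these steps was smaller than the standard errors on either side of it, so the order of neighbours is not resolved.

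**Figure D2:**
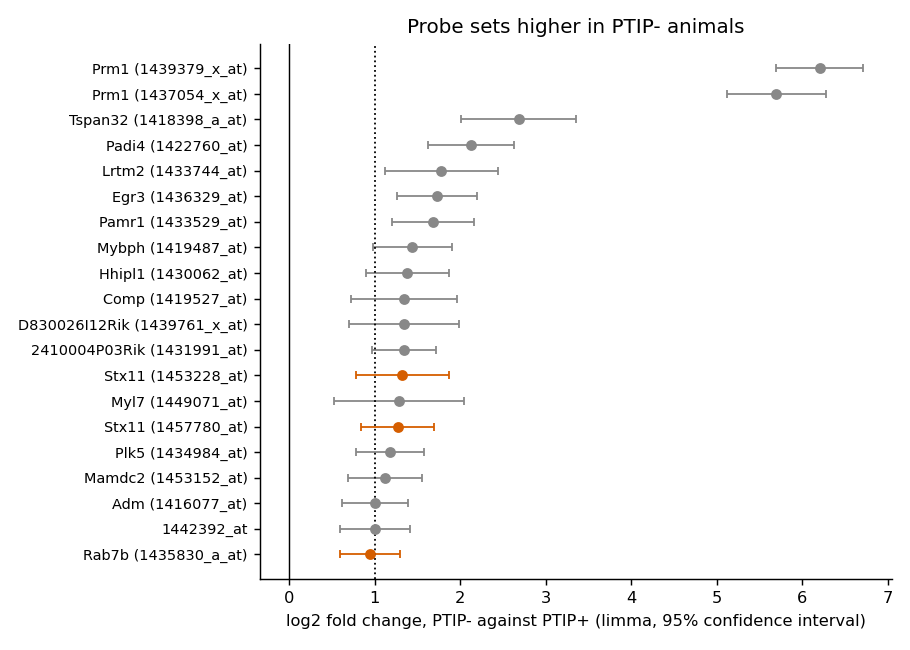
Log2 fold change of PTIP- against PTIP+ in limma, with 95% confidence intervals, for the 20 probe sets that were higher in PTIP- (8 PTIP+, 10 PTIP- animals). Stx11 and Rab7b are in orange, and the dotted line marks a log2 fold change of 1, just above the Rab7b estimate of 0.95.

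The genotype difference was also taken within each number series. For probe set A the PTIP- mean exceeded the PTIP+ mean by 1.20, 1.58 and 1.15 in series 1, 2 and 3. For probe set B the differences were 1.40, 0.77 and 1.10. For Rab7b they were 0.92, 0.35 and 1.19. In 8 of these 9 comparisons every PTIP- animal lay above every PTIP+ animal, though groups this small separate more easily than all 18 animals. The exception was Rab7b in series 2, where PTIP- replicate 7 at 7.26 was below PTIP+ replicate 4 at 7.57. Both Stx11 probe sets, 2 of the 3, separated in all 3 series, as did 65.5% of the table. Separation within a series was thus common in a table selected on this contrast, and nothing is read from the 8 of 9.

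Series 2 thus held the largest difference for probe set A and the smallest for probe set B and for Rab7b. The test of a genotype effect that varies with number series gave adjusted p = 0.719 for probe set A, 0.803 for probe set B and 0.335 for Rab7b in limma, so no such variation was established for these genes. It passed 0.05 in 15.5% of the table. Of the 6 arrays of series 2, 5 had weights between 0.26 and 0.52 in the fit, and the other, PTIP- replicate 4, had 1.63. Without weights the Rab7b estimate was 0.82.

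**Figure D3:**
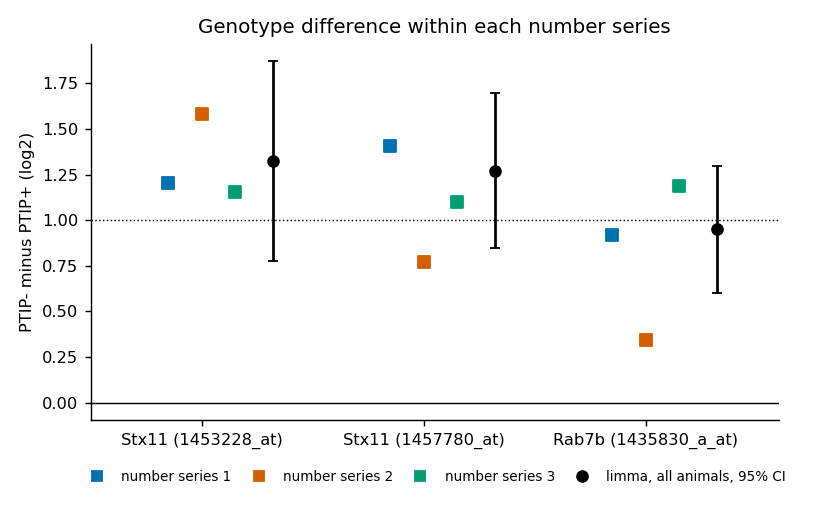
Difference of the PTIP- and PTIP+ means (log2) within each number series as squares, beside the limma estimate over all 18 animals with its 95% confidence interval in black. Series 2 gives the highest square for probe set A, at 1.58, and the lowest for probe set B and Rab7b, at 0.77 and 0.35.

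Over all animals the probe sets of Stx11 gave nearly the same genotype difference, but agreement in how they ranked animals within genotypes was not established after adjustment. Their offset, A minus B in the same animal, carries no meaning as a level because each probe set has its own response, but its change between animals shows where they part. The average was 0.07 ± 0.85 (SD, n = 8) for PTIP+ animals and 0.12 ± 0.58 (SD, n = 10) for PTIP- animals. The genotypes differed in it by 0.05, with p = 0.882 in the exact permutation test. Within number series the mean difference was 0.22, with p = 0.414 over the 6000 exact assignments. A difference in offset between genotypes was therefore not detected.

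The offset instead followed number series. In PTIP+ animals it averaged 0.80, -1.08 and 0.10 in series 1, 2 and 3, and in PTIP- animals 0.60, -0.27 and 0.15. In both genotypes the mean was thus highest in series 1 and lowest in series 2. In series 1 it lay between 0.65 and 0.95 in PTIP+ and between 0.34 and 0.89 in PTIP-. In series 2 it was -1.58 and -0.58 in the PTIP+ animals and ran from -1.05 to 0.65 in PTIP-. In series 3 it ran from -0.20 to 0.46 in PTIP+ and from 0.01 to 0.24 in PTIP-. The lowest offset was that of PTIP+ replicate 4 of series 2, which had the lowest probe set A value of all animals, 5.76, beside a probe set B value of 7.34.

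Number series accounted for 69.1% of the offset's variance within genotypes, with exact p = 0.00271 when series were reassigned within genotype, or 0.0135 after Benjamini-Hochberg adjustment over 5 measures. This test was chosen after the values had been seen. The share was 48.5% for probe set A (exact p = 0.0696), 49.6% for probe set B (exact p = 0.0559), 39.3% for their mean (exact p = 0.155) and 31.1% for Rab7b (exact p = 0.327). The median share over the 58 probe sets was 58.2%, above the shares of Stx11 and Rab7b themselves. The table holds 13 other pairs of probe sets for the same gene, from 4 genes, and 10 of the pairs combine the 5 probe sets of Ntrk3. Their offsets had shares of 32.1% to 70.3% for Ntrk3, 60.0% for A330068G13Rik, 66.1% for Prm1 and 68.9% for St6galnac3. Only 1 of these 13 pairs had a higher share than Stx11, and the shares of St6galnac3 and Prm1 were close to it.

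**Figure D4:**
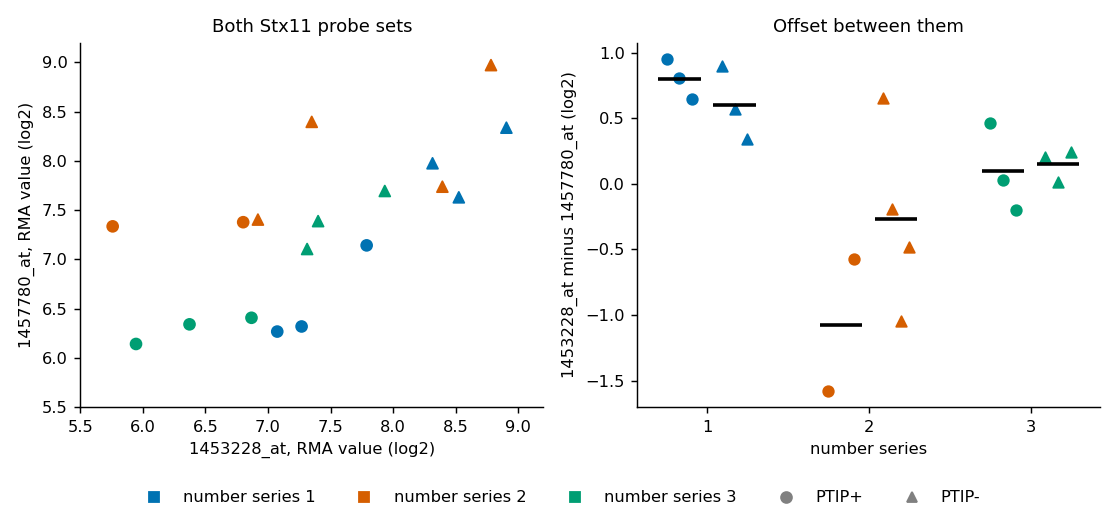
Left, probe set B against A of Stx11 in each animal (RMA values, log2). Right, the offset A minus B in each animal by number series and genotype, with lines at group means. In both genotypes the mean offset is highest in series 1 (0.80 and 0.60) and lowest in series 2 (-1.08 and -0.27).

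Agreement of the Stx11 probe sets across animals was weak in controls. In PTIP+ animals r was 0.03 (exact permutation p = 0.943, rho = -0.07, exact p = 0.882, n = 8). Leaving out 1 animal at a time moved this r between -0.28 and 0.47. In PTIP- animals r was 0.60 (permutation p = 0.0664, rho = 0.59, p = 0.0813, n = 10). Whether these correlations differ was not tested. Over all 18 animals after subtraction of genotype means, r was 0.36 (permutation p = 0.152, rho = 0.40, p = 0.116), or 0.217 for the p of r after Benjamini-Hochberg adjustment over 16 relations.

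The relation of the Stx11 probe sets was also taken within number series. With genotype means removed, series 1, 2 and 3 gave r of 0.85, 0.56 and 0.82, each over 6 animals. With the mean of each genotype in each series removed, r over all animals was 0.63 (permutation p = 0.0698, adjusted p = 0.167, rho = 0.45, p = 0.179), falling to 0.30 without the 2 animals farthest from the median. The value with genotype means alone depended on which series entered. Without series 1, 2 or 3 it was 0.44 (permutation p = 0.174), 0.83 (p = 0.00120) or 0.10 (p = 0.759). It was 0.56 without PTIP+ replicate 4 (permutation p = 0.0276) and 0.52 without the 2 farthest animals (p = 0.0486), none of these p-values being adjusted. Among the 13 other same-gene pairs, 10 of them of Ntrk3, r ranged from -0.68 to 0.91, and 5 lay below that of Stx11.

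Stx11, as the mean of both probe sets, and Rab7b were positively correlated within each genotype, but no relation passed after adjustment. In PTIP+ animals r was 0.45 (exact permutation p = 0.264, rho = 0.38, exact p = 0.360, n = 8). In PTIP- animals it was 0.48 (permutation p = 0.163, rho = 0.36, p = 0.311, n = 10). Both fell without the 2 animals farthest in Stx11, to 0.28 and 0.23. With genotype means removed, r over 18 animals was 0.46 (permutation p = 0.0614, adjusted p = 0.167, rho = 0.29, p = 0.253), and 0.41 without the 2 farthest. That r reached an unadjusted p below 0.05 without PTIP+ replicate 4 (0.53, permutation p = 0.0331), PTIP- replicate 8 (0.52, p = 0.0409) or PTIP- replicate 10 (0.51, p = 0.0393). Without number series 1, 2 or 3 it was 0.33 (permutation p = 0.296), 0.50 (p = 0.109) or 0.68 (p = 0.0263).

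No relation of a single Stx11 probe set with Rab7b passed within a genotype. For probe set A and Rab7b r was 0.07 in PTIP+ animals (exact permutation p = 0.867, n = 8) and 0.59 in PTIP- animals (permutation p = 0.0729, n = 10). Leaving out 1 animal at a time moved the PTIP+ value between -0.24 and 0.60, and without the 2 farthest animals the values were 0.35 and 0.41. For probe set B and Rab7b r was 0.65 in PTIP+ animals (exact permutation p = 0.0848, n = 8) and 0.22 in PTIP- animals (permutation p = 0.531, n = 10), or 0.62 and 0.42 without the 2 farthest. Leaving out 1 animal at a time moved the PTIP- value between 0.04 and 0.35. Whether these values differ was not tested.

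Within number series, r between Stx11 as the mean and Rab7b was 0.92, 0.64 and 0.53 in series 1, 2 and 3 with 6 animals each. With the mean of each genotype in each series removed, r was 0.66 (permutation p = 0.0126, rho = 0.60, p = 0.0293), 0.52 without the 2 farthest animals, and the p of r adjusted over the 16 relations was 0.101. Taken singly on that scale, probe set A and Rab7b gave r = 0.57 (permutation p = 0.0444) and probe set B and Rab7b gave r = 0.63 (permutation p = 0.0117), with adjusted p-values of 0.167 and 0.101. By the mean of its probe sets Stx11 was highest in PTIP- replicate 5, at 8.88 with Rab7b at 8.02, whereas Rab7b was highest in PTIP- replicate 2, at 8.37 with Stx11 at 8.62. The lowest PTIP- animal was replicate 7 for both, at 7.16 and 7.26.

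**Figure D5:**
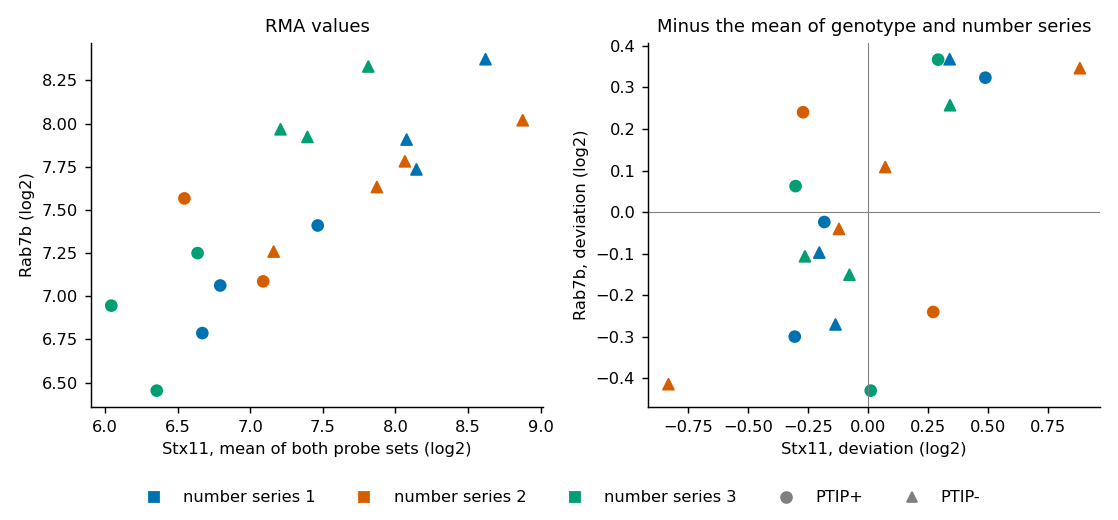
Left, Rab7b against the mean of both Stx11 probe sets in each animal (RMA values, log2). Right, the same after the mean of each genotype in each number series was subtracted, where r = 0.66 over 18 animals and the points rise together with wide scatter.

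Some other probe sets had a higher r with each gene than these genes had with each other. Over the 18 animals with genotype means removed, and among the 55 probe sets of other genes, Stx11 was most like 5830408B19Rik (r = 0.72), Mamdc2 (r = 0.68) and Ephb1 (r = 0.66). Its lowest r was with a probe set of Ntrk3, a neurotrophin receptor, at -0.42. With the mean of each genotype in each series removed, these values became 0.58, 0.82, 0.69 and 0.13, and the highest were Mamdc2, Pamr1 (0.80, from 0.06) and a probe set without a symbol (0.76, from 0.16). The order therefore depended on number series. Mamdc2 was increased in PTIP- with a log2 fold change of 1.12, while 5830408B19Rik and Ephb1, an ephrin receptor, had values of -1.28 and -0.92.

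Rab7b was most like 2410004P03Rik (r = 0.69), Mamdc2 (r = 0.69) and Nell2 (r = 0.64), and least like another probe set of Ntrk3 (r = -0.43). With the mean of each genotype in each series removed, these became 0.65, 0.82, 0.63 and -0.22, and Ptchd4 (0.83), Mamdc2, Adm (0.74), Necab3 (0.70) and 5830408B19Rik (0.69) stood above 2410004P03Rik. Nell2, a secreted glycoprotein best known from neurons, had a log2 fold change of -1.41. Mamdc2 was among the 3 closest for Stx11 and for Rab7b on either scale. The r between Stx11 and Rab7b would rank 9 among the values of Stx11 and 10 among those of Rab7b. The median r with the other 55 probe sets was 0.14 for Stx11 and 0.16 for Rab7b. These ranks and medians are for values with genotype means alone removed. They are no background for the r of 0.66 between the genes with series means also removed. On that scale r with most other probe sets rose as well. These are descriptions, without a test, of probe sets read on the same arrays in animals that share number series.

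Of a list of 72 vesicle traffic genes that held other syntaxins, SNAP and VAMP proteins, Munc proteins and Rab GTPases, only Stx11 and Rab7b had a probe set among the 58. The rest of the machinery was not analysed here. The lists of podocyte, endothelial, mesangial and tubule markers had 0 genes in the table, so the makeup of the fractions could not be checked against defining markers.

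Of 17 leukocyte genes, 2 were in the table, Padi4 and Tspan32. Padi4 encodes a histone-citrullinating enzyme of neutrophils and Tspan32 a tetraspanin of blood cells, and both had been put on the list with their rise in these data known. Their log2 fold changes were 2.13 (SE 0.24) and 2.68 (SE 0.32). The log2 of their summed values ran from 5.28 to 6.47 in PTIP+, with a median of 6.08, and from 6.46 to 9.74 in PTIP-, with a median of 8.63. Defining leukocyte markers such as Ptprc were not analysed here.

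Correlations with these genes are given as a description, without a test. Padi4 and Stx11 had r = 0.70 in PTIP+ animals, 0.57 in PTIP- animals and 0.58 over all 18 with genotype means removed, or 0.63 with the mean of each genotype in each series removed. For Tspan32 and Stx11 the same values were -0.29, -0.06, -0.12 and 0.44, so their sign depended on number series. For Rab7b they were 0.33, 0.55, 0.45 and 0.41 with Padi4, and -0.47, 0.75, 0.33 and 0.44 with Tspan32. The part of leukocyte RNA in the differences of Stx11 and Rab7b was not tested.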

How the data were processed

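Per the labels and the study's methods, RNA of glomeruli-enriched fractions was hybridised to Affymetrix arrays, and the authors normalized all arrays together by RMA. The deposited table holds log2 values of 58 probe sets in 18 animals, all selected by the authors on the genotype contrast. Its columns of the authors' own comparison (t-statistic, p-value and fold change) were not used. Every value column was matched to an animal by its label. A genotype model was fitted to all 58 probe sets with limma 3.58.1 in R 4.3.3 (lmFit, arrayWeights, eBayes), with Benjamini-Hochberg adjustment over the 58. Means and SDs are unweighted. Differences of means were tested by two-sided permutation over all 43758 assignments, and correlations by permutation within genotype, exact for PTIP+ animals and with 100000 resamples for PTIP- and for genotype-centred values. On values centred within genotype and series, all 62208 permutations within these cells were run for r, and 100000 resamples for rho. Python 3.11.15, numpy 2.4.6 and scipy 1.17.1 were used. The fit was tested on simulated data. Alternatives were no array weights, number series or replicate number as a block, centred arrays, another prior, stricter limits, Spearman correlation and leaving out each animal, with leaving out each number series added after the data were seen. Genes named beside Stx11 and Rab7b were those of the lists with a probe set, the 3 most and the 1 least correlated probe sets, and the neighbours in order of fold change. Mamdc2, 5830408B19Rik, Ephb1 and Nell2 were named by that rule, and the genes of the other same-gene pairs, Pamr1, Ptchd4, Adm and Necab3 after their values were seen. The members and lists were chosen with earlier results of these data known. Arrays give no molecule counts, so the number of animals limits the precision.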

Additional observations from a re-analysis of the deposited data

How the results depend on the processing

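Both Stx11 fold changes stayed above 2-fold in all 28 alternatives each and, except with medians, which carry no p, past the adjusted p as well, from 1.07 to 1.95 on the log2 scale for probe set A and from 1.14 to 1.86 for probe set B. Leaving out each animal in turn gave 1.07 to 1.49 and 1.18 to 1.37. Rab7b stayed higher in PTIP- under all 28, from 0.74 to 1.50, and passed 2-fold under 4 of them: with centred arrays (1.50), without number series 1 (1.08) or 2 (1.09) but not 3 (0.74), and in 1 of 18 fits that left out an animal (range 0.84 to 1.01). Centring moved every estimate of the table upward, because the array medians of this selected table differed by -0.46 between PTIP- and PTIP+. The pass with centred arrays is therefore not read as support for Rab7b. Why the other passes depended on the animals left out was not tested. Members past all thresholds numbered 2 or 3 throughout. Calls over the table numbered 52 of 58 in the fit reported, 32 with centred arrays and 42 to 58 without a number series. The labels give no pairing of the animals by replicate number. Deviations correlated above 0.1 in 5 of 8 same-number pairs, with r from -0.35 to 0.62. Replicates 6 and 7, whose animals came from different number series, had r of -0.35 and -0.19. Pairs from the same series had r from -0.0075 to 0.62. With the replicate block the fold changes were 1.30, 1.20 and 0.77, and 48 probe sets were called. The offset difference between genotypes, 0.05, changed sign without number series 2 (-0.073) and with medians (-0.023) and ranged from -0.18 to 0.18 when each animal was left out, with p from 0.414 to 0.997 over its permutation alternatives. The correlation of the Stx11 probe sets, 0.36, reached an unadjusted p under 0.05 without number series 2 (0.83) and without the 2 farthest animals (0.52), was 0.10 without series 3 and 0.30 with centred arrays, and ranged from 0.25 to 0.56 when each animal was left out. That of Stx11 and Rab7b, 0.46, did so when centred within number series (0.66) and without number series 3 (0.68), was 0.33 and 0.50 without series 1 and 2, and ranged from 0.33 to 0.53 when each animal was left out. Leaving out number series was chosen after seeing the data. Signal over array background was not given, so its limit on low values was not tested.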
